A study of Mus musculus with 9 samples.

Results

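The receptors described here are 7 members of the tumour necrosis factor (TNF) receptor superfamily that can act as costimulatory receptors of T cells: Tnfrsf4 (OX40), Tnfrsf9 (4-1BB), Tnfrsf18 (GITR), Tnfrsf25 (DR3), Cd27, Tnfrsf1a (TNFR1) and Tnfrsf1b (TNFR2). They were chosen by symbol, with earlier results of these data known, and all 7 were found among the 24594 genes of the table. All 7 passed the filter on low values, an RPKM (reads per kilobase of exon, scaled to the size of the library) of at least 1 in at least 2 of 9 libraries, which 11569 genes passed. The libraries were made from CD4+ CD8- CD69+ thymocytes that stained for the Vα2 and Vβ5 chains of the OT-II T cell receptor, which recognizes an ovalbumin peptide on MHC class II. The cells were sorted from mixed bone marrow chimeras after 4.7 weeks of reconstitution. Each irradiated host had received OT-II control marrow (donors were F1 offspring of B6.Cg-Tg(TcraTcrb)425Cbn/J and BoyJ mice, with both Nr4a1 and Nr4a3 intact), OT-II marrow lacking both genes (donor C57BL/6 Nr4a1-/- Nr4a3-/-, labelled DKO) and marrow without the transgene. WT hosts were BoyJ mice according to the labels, whereas the methods give F1 offspring of the RIPmOVA and BoyJ lines for WT hosts as well. RIPmOVA hosts were F1 offspring of BoyJ mice and of C57BL/6 mice of the WehiJ line that carries Tg(Ins2-TFRC/OVA)296Wehi, in which the rat insulin promoter drives a membrane form of ovalbumin, so that medullary thymic epithelium presents it as a tissue-restricted self-antigen. WT hosts gave 2 OT-II and 3 DKO-labelled libraries, and RIPmOVA hosts gave 2 of each. Donor background differed along with the Nr4a genotype, and by the labels host background along with the ovalbumin transgene, so neither pair can be told apart in these comparisons.

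These receptors are trimerizing membrane proteins whose ligands are made by antigen-presenting cells, by activated T cells and, in the thymus, by medullary epithelium. Ligand binding recruits TRAF adaptors, which activate both the canonical and the alternative NF-κB pathways. In peripheral T cells, signals through the T cell receptor raise OX40, 4-1BB, GITR and TNFR2, while CD27 is present on resting cells. In the thymus, GITR, OX40 and TNFR2 are known for their part in the maturation of regulatory T cell precursors. TNFR1 and DR3 also carry a cytoplasmic death domain, through which they can recruit TRADD.

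For the label of CD4 single-positive cells, 8 marker genes summed to between 1470 and 1760 RPKM in each library, and Cd4 was at 189 to 241 RPKM. Summed RPKM was 2.72 to 10.5 for B cell markers, 2.18 to 21.5 for myeloid and dendritic markers and 2.75 to 11.8 for thymic epithelial markers. The last came mostly from Epcam, at 2.24 to 10.2 RPKM. Markers of NK and innate lymphoid cells summed to 31.8 and 33.1 in OT-II RIPmOVA libraries and to 1.7 to 8.85 in the others, and erythroid markers to 0.964 to 25.1. The list of double-positive and CD8 lineage genes reached 63.9 to 103, mostly through Cd8b1, which was at 54.5 to 96.4 RPKM in these cells sorted as CD8-, while Cd8a was at 1.76 to 7.6. Libraries held 15520000 to 25050000 reads, as recovered from the smallest differences in RPKM. Gene-level RPKM did not check the DKO label: Nr4a1 was 60.1 to 87.7 in DKO-labelled and 60.7 to 86.1 in OT-II libraries of WT hosts, and Nr4a3 was 14.1 and 16.5 in DKO-labelled libraries of RIPmOVA hosts against 3.72 and 5.66 in OT-II libraries. These libraries are therefore called DKO-labelled. Reads on sensory receptor genes, which thymocytes are not known to use, were at 292.5 to 1481 RPM (the same scaling without length) and were highest in DKO-labelled RIPmOVA replicate 2, OT-II WT replicate 1, DKO-labelled WT replicate 2 and DKO-labelled RIPmOVA replicate 1.

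Of the 7 genes, 5 lie on chromosome 4 of GRCm38 within 10.8 Mb, and Cd27 and Tnfrsf1a lie 112 kb apart on chromosome 6. Tnfrsf4 (chr4:156013843-156016612) and Tnfrsf18 (chr4:156026164-156028895) are neighbours on the plus strand with 9.55 kb between them. Tnfrsf25 (chr4:152115934-152120119) and Tnfrsf9 (chr4:150914562-150946102) are on the plus strand, and Tnfrsf1b (chr4:145213463-145246870) is on the minus strand. Cd27 (chr6:125232622-125237010) is on the minus strand and Tnfrsf1a (chr6:125349362-125362484) on the plus strand. All 7 are protein-coding in GENCODE vM21. Tnfrsf9 lies across Camta1 and Cd27 across Vamp1, each on the other strand and with 0 shared exon bases. The antisense gene Gm16008 shares 414 of the 1524 exon bases of Tnfrsf18 (27.2%), and the use of strand in counting was not stated, so reads of Tnfrsf18 and Gm16008 over these bases cannot be told apart.

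Levels of different receptors can be compared only per length, and the length used by the authors matters for them. For 79.3% of the 24062 genes matched by symbol, the deposited length equalled the sum of all distinct exon records in GENCODE, in which bases shared by several records count more than once. For Tnfrsf18 the deposited length was 3853 bases against 1524 merged exon bases, a ratio of 2.53, whereas for Tnfrsf1b it was 3917 against 3818, a ratio of 1.03. The other 5 genes had ratios of 1.36 to 1.81. RPKM is used below as deposited, and fold changes of a gene between libraries do not depend on its length apart from the pseudocount. The order of levels between genes does depend on it.

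Promoter sequence was taken from RefSeq (GRCm38.p6), which listed 9 transcription starts for the 7 genes, and the 250 bases before each start were searched on both strands. A loose NF-κB pattern, GGG and CC with any 5 bases between them, was found before 6 of the 9 starts, against 45.8% of all 32851 promoter windows and 59.1% of the 11253 windows of genes that passed the filter. The AP-1 letters TGANTCA were found before 1 of the 9 starts, against 6.75% of all windows. The letters AAAGGTCA, the NBRE element to which Nr4a proteins bind as monomers, were found before 0 of the 9, against 1.34% of all windows. The NFAT core GGAAA was found before 7 of the 9, against 55.6% of all windows, and overlaps the NF-κB letters at the second start of Tnfrsf9 and the first start of Tnfrsf25. A match describes letters only.

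The sequences below show what these letters look like before genes with different behaviour between hosts: Tnfrsf9 and Tnfrsf1b, which were higher in RIPmOVA hosts in both genotypes, Tnfrsf25, which passed the test in DKO-labelled cells only, Tnfrsf4, which was higher in both without the letters, and Cd27, which has the letters and showed no difference between hosts. Each is written 5′ to 3′ on the strand of the gene, with the NF-κB letters in capitals. For Tnfrsf9 only 30 bases around the match are given, all of which lie within an untranslated exon of another Tnfrsf9 transcript. For Tnfrsf4 only the 84 bases outside the neighbouring gene Sdf4 are given.
Tnfrsf9, chr4:150927952-150927981, plus strand, 47 to 18 bases before the second start: agctGGGGATTTCCCaggaggccctgctca
Tnfrsf1b, chr4:145246871-145247120, minus strand: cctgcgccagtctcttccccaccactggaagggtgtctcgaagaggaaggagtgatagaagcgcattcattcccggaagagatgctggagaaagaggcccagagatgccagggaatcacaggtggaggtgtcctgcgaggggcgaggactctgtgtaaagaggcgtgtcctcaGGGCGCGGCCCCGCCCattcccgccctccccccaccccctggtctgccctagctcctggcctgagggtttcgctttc
Tnfrsf25, chr4:152115684-152115933, plus strand, before the first start: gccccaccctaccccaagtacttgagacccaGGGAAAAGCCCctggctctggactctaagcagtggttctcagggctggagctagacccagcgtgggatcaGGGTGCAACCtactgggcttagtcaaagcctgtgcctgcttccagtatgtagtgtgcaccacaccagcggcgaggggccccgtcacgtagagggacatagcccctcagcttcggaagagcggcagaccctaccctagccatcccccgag
Tnfrsf4, chr4:156013611-156013694, plus strand: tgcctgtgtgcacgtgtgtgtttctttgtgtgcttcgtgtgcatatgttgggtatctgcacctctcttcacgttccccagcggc
Cd27, chr6:125237028-125237277, minus strand: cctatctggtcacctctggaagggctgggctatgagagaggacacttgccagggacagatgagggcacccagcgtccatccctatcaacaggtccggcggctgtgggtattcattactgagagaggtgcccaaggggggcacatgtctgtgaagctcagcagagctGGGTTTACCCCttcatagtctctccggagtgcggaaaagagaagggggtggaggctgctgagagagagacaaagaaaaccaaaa

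The stretch of Tnfrsf9 reads GGGGATTTCCC, 43 to 33 bases before the start, and matches the pattern on both strands. The AP-1 letters of the set, TGAGTCA, lie 15 to 9 bases before the same start. The letters before Cd27, 84 to 74 bases from its start, also matched on both strands, although the RPKM of Cd27 hardly differed between hosts.

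**Figure D1:**
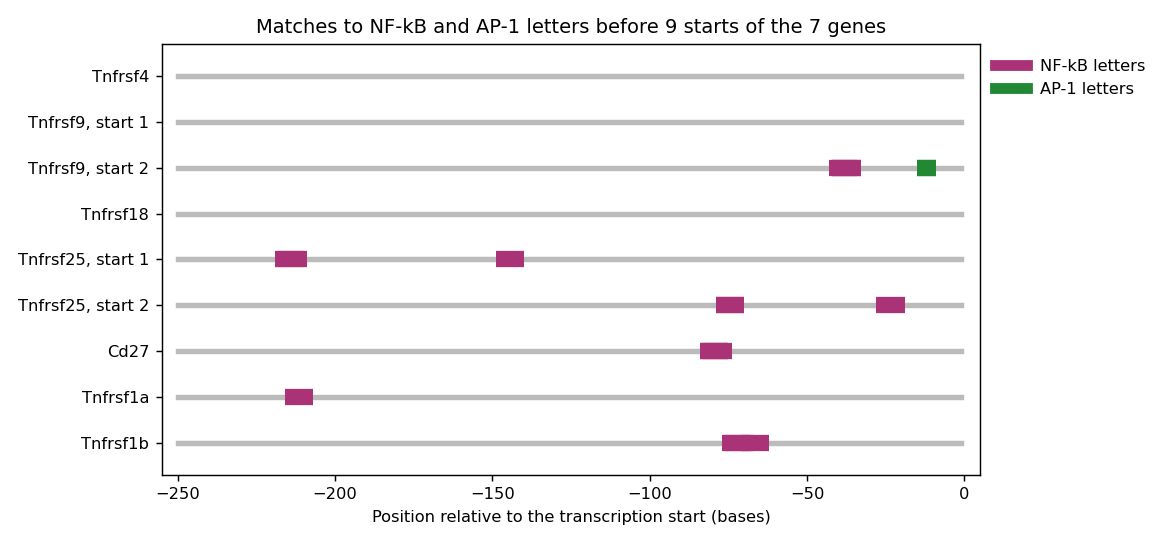
Positions of matches to the NF-κB letters (purple) and AP-1 letters (green) in the 250 bases before each of 9 transcription starts of the 7 genes; the horizontal axis gives bases relative to the start. NF-κB letters lie before 6 starts and AP-1 letters before 1, the second start of Tnfrsf9, and Tnfrsf4 and Tnfrsf18 have neither.

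In OT-II cells of WT hosts, which were selected without ovalbumin, the receptors covered a wide range. Cd27 was the highest, at 127 ± 16.3 RPKM (SD, n = 2), above 98.6% of the genes that passed the filter. Tnfrsf18 followed at 44.8 ± 1.59 RPKM. Tnfrsf1a was at 31.5 ± 3.07 RPKM (29.3 and 33.6) and Tnfrsf1b at 27.4 ± 2.36 RPKM (29.0 and 25.7). They were close on the deposited lengths, whereas on merged exon bases their means were 42.7 and 28.1 RPKM. Tnfrsf4 was at 21.5 ± 4.16 RPKM, Tnfrsf25 at 5.8 ± 2.04 and Tnfrsf9 at 4.87 ± 1.99, and the libraries of the last pair overlapped. In OT-II cells of RIPmOVA hosts 5 receptors lay close together on the deposited lengths: Cd27 at 130 ± 4.86 RPKM, Tnfrsf4 at 118 ± 3.87, Tnfrsf9 at 101 ± 14.3, Tnfrsf18 at 101 ± 12.2 and Tnfrsf1b at 91.8 ± 8.48. On merged exon bases their means spread from 94.2 RPKM for Tnfrsf1b to 255 for Tnfrsf18. Cd27 was then at 235, Tnfrsf4 at 176 and Tnfrsf9 at 158. Both the closeness and the highest receptor there thus depended on the length used. In WT hosts the RPKM of the 7 receptors summed to 281 and 245 for OT-II and to 188, 185 and 203 for DKO-labelled libraries. In RIPmOVA hosts it summed to 595 and 554 for OT-II and to 448 and 335 for DKO-labelled libraries. The 4 groups did not overlap in this sum. In bulk samples, fewer cells with a transcript and less of it per cell cannot be told apart, and this holds for each value below.

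**Figure D2:**
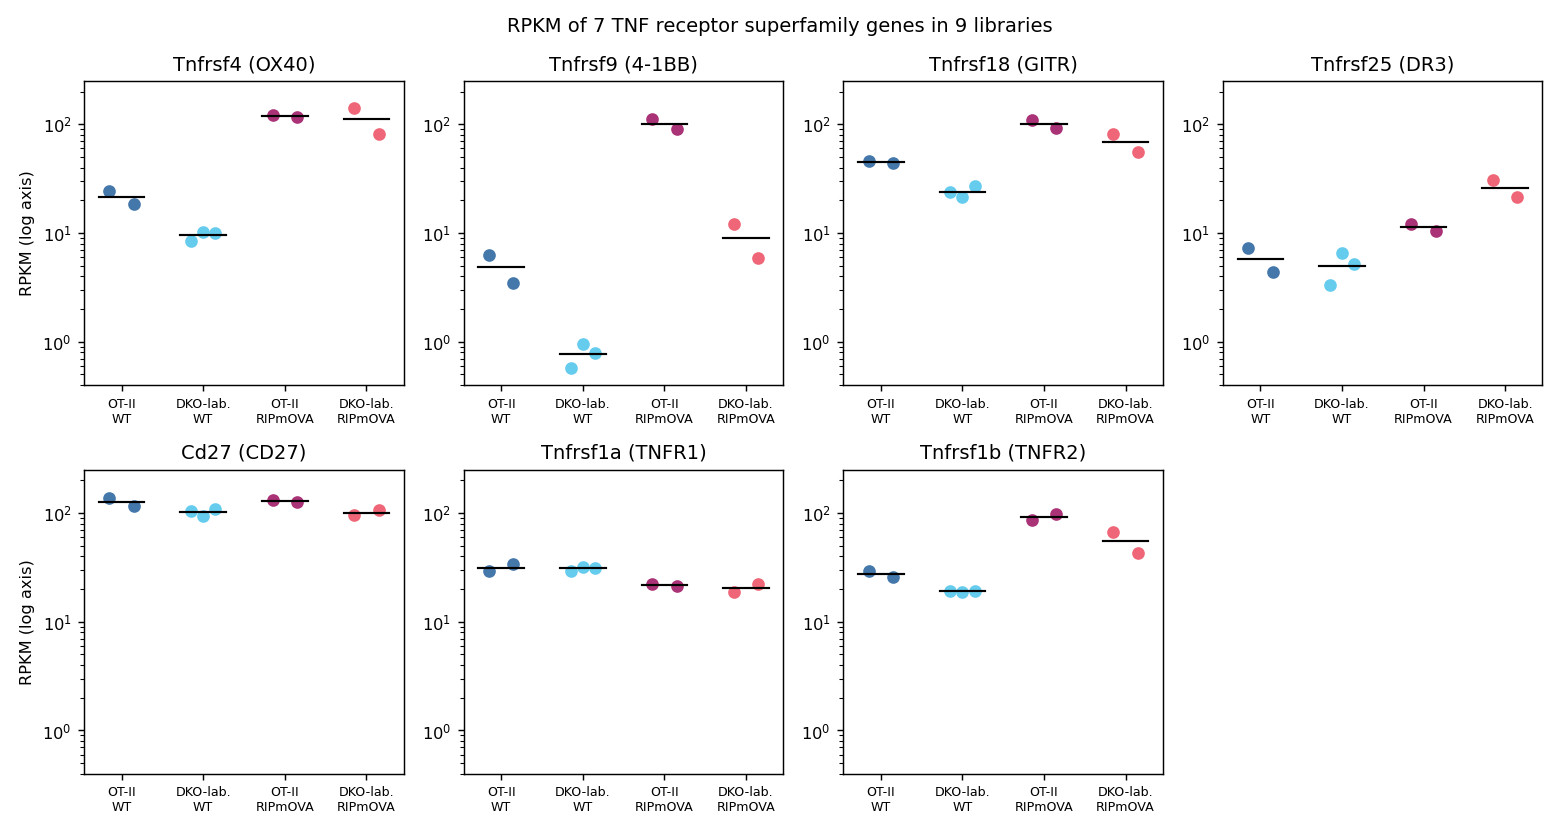
RPKM on a log axis of each receptor in 9 libraries, 1 panel per gene; points are libraries, coloured by the 4 groups of genotype (OT-II or DKO-labelled) and host (WT or RIPmOVA), and bars are group means. Tnfrsf9 spans 0.576 to 111 RPKM, whereas Cd27 stays between 94.1 and 138.

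The first comparison asks how the receptors differ when OT-II cells develop with their antigen present, by setting RIPmOVA against WT hosts within each genotype. In OT-II cells 4 of 7 receptors rose, with limits of 0.05 on the adjusted p of limma's two-sided moderated test and of 1 on the size of the log2 fold change, where 1.05% of all genes tested were called higher. In DKO-labelled cells 5 of 7 rose, where 1.52% of all genes were called higher. The receptors were chosen with earlier results of these data known, so these counts were not tested against those shares. No receptor was called lower in either genotype, as were 0.173% and 0.156% of genes. Tnfrsf9, Tnfrsf4, Tnfrsf1b and Tnfrsf18 were called in both, and Tnfrsf25 in DKO-labelled cells only. The 7 receptors had median log2 fold changes of 1.16 (OT-II) and 1.47 (DKO-labelled), against -0.02 and 0.03 over all genes. Libraries of the hosts did not overlap for 5 receptors that were higher and for Tnfrsf1a, which was lower, in each genotype. Over all genes, hosts did not overlap for 19.4% in the higher and 22.1% in the lower direction in OT-II cells, and for 22.7% and 17.3% in DKO-labelled cells.

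4-1BB, encoded by Tnfrsf9, is nearly absent from resting T cells and is used as a marker of recent antigen recognition. Its RPKM was 6.28 and 3.46 in OT-II libraries of WT hosts, and 111 and 90.5 in those of RIPmOVA hosts. In DKO-labelled libraries it was 0.576, 0.962 and 0.793 in WT hosts, and 12.2 and 5.84 in RIPmOVA hosts. DKO-labelled WT libraries were below and OT-II RIPmOVA libraries above all the others, while the remaining 2 groups overlapped, since OT-II WT replicate 1 lay above DKO-labelled RIPmOVA replicate 2. The mean was 20.7 times higher in RIPmOVA than in WT hosts in OT-II cells, a log2 fold change of 4.28 (SE 0.34, adjusted p = 0.00079 in limma), and 11.6 times higher in DKO-labelled cells, a log2 fold change of 2.82 (SE 0.31, adjusted p = 0.0018). The DKO-labelled WT libraries held only 60, 83 and 85 reads of the gene, so that the pseudocount of 0.5 lowers the second value. With limma voom on recovered read numbers the second value was 3.51 and the first, of OT-II cells, 4.49.

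OX40, encoded by Tnfrsf4, prolongs the survival of T cells after activation. Its RPKM was 24.5 and 18.6 in OT-II libraries of WT hosts, and 121 and 116 in those of RIPmOVA hosts. The DKO-labelled libraries held 8.5, 10.2 and 9.98 in WT hosts, and 142 and 82.1 in RIPmOVA hosts. In both genotypes every library of RIPmOVA hosts lay above every library of WT hosts, and the DKO-labelled RIPmOVA libraries lay on either side of the OT-II ones. The log2 fold change between hosts was 2.44 (SE 0.23, adjusted p = 0.0017 in limma) in OT-II cells and 3.43 (SE 0.21, adjusted p = 0.0001) in DKO-labelled cells. In the latter the mean was 11.7 times higher, close to the ratio of Tnfrsf9, and voom on recovered reads gave 3.51 for both genes.

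GITR, encoded by Tnfrsf18 next to Tnfrsf4, lowers the threshold of T cells for activation and is abundant on regulatory T cells. Its RPKM was 46.0 and 43.7 in OT-II libraries of WT hosts, and 110 and 92.4 in those of RIPmOVA hosts. DKO-labelled cells gave 23.7, 21.7 and 26.8 in WT hosts, and 81.3 and 55.1 in RIPmOVA hosts. All 4 groups were apart, with OT-II above DKO-labelled in each host. The mean was 2.25 times higher in RIPmOVA hosts in OT-II cells (log2 fold change 1.16, SE 0.18, adjusted p = 0.015 in limma) and 2.83 times higher in DKO-labelled cells (1.46, SE 0.16, adjusted p = 0.0019). The call in OT-II cells was lost without OT-II WT replicate 1 (adjusted p = 0.059), OT-II RIPmOVA replicate 1 (0.16) or OT-II RIPmOVA replicate 2 (0.06), and with the sensory receptor share as a covariate (0.084), with log2 fold changes of 1.04 to 1.28.

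TNFR2, encoded by Tnfrsf1b, is the TNF receptor without a death domain. Its RPKM was 29.0 and 25.7 in OT-II libraries of WT hosts, and 85.8 and 97.8 in those of RIPmOVA hosts. For DKO-labelled cells the values were 19.0, 18.9 and 19.1 in WT hosts, and 67.2 and 42.8 in RIPmOVA hosts. The groups were apart, as for Tnfrsf18. The log2 fold change between hosts was 1.73 (SE 0.18, adjusted p = 0.0021 in limma) in OT-II cells and 1.47 (SE 0.16, adjusted p = 0.002) in DKO-labelled cells.

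TNFR1, encoded by Tnfrsf1a, binds the same ligands through a receptor with a death domain and went the other way. Its RPKM was 29.3 and 33.6 in OT-II libraries of WT hosts, and 22.3 and 21.3 in those of RIPmOVA hosts. Values of DKO-labelled libraries were 29.5, 32.1 and 31.3 in WT hosts, and 18.9 and 22.1 in RIPmOVA hosts. Every library of RIPmOVA hosts lay below every library of WT hosts, and OT-II and DKO-labelled libraries overlapped within each host. The log2 fold change was -0.52 (SE 0.11, adjusted p = 0.054 in limma) in OT-II cells and -0.59 (SE 0.1, adjusted p = 0.016) in DKO-labelled cells. The latter passed the limit on adjusted p, as did 1.03% of genes in the lower direction, but not the limit on size. The mean of Tnfrsf1b was below that of Tnfrsf1a in WT hosts and above it in RIPmOVA hosts in both genotypes, also on merged exon bases.

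DR3, encoded by Tnfrsf25, is the receptor of TL1A. Its RPKM was 7.24 and 4.35 in OT-II libraries of WT hosts, and 12.1 and 10.5 in those of RIPmOVA hosts. DKO-labelled libraries were at 3.32, 6.53 and 5.14 in WT hosts, and 30.9 and 21.3 in RIPmOVA hosts. WT-host libraries of both genotypes overlapped, and the DKO-labelled RIPmOVA libraries were above all the others. The log2 fold change between hosts was 2.30 (SE 0.28, adjusted p = 0.0032 in limma) in DKO-labelled cells, and 0.94 (SE 0.31, adjusted p = 0.19) in OT-II cells. The sensory receptor share moved with this gene: within WT hosts its highest value in each genotype fell in the library with the largest share (1133 and 1042 RPM), and the share was 1041 and 1481 RPM in DKO-labelled RIPmOVA libraries against 551.8 and 292.5 in OT-II RIPmOVA libraries. Among the DKO-labelled RIPmOVA libraries the higher Tnfrsf25 fell in the library with the smaller share. With the share as a covariate the log2 fold change was 1.94 (adjusted p = 0.041) in DKO-labelled cells and 1.25 (adjusted p = 0.18) in OT-II cells.

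CD27, which supports T cell survival and is present from early thymic stages on, was the most even of the receptors between hosts. Its RPKM was 138 and 115 in OT-II libraries of WT hosts, and 133 and 126 in those of RIPmOVA hosts. DKO-labelled cells were at 104, 94.1 and 109 in WT hosts, and 95.1 and 106 in RIPmOVA hosts. The hosts overlapped in both genotypes. Its log2 fold change was 0.04 in OT-II cells (95% interval -0.22 to 0.3) and -0.03 in DKO-labelled cells (-0.27 to 0.21).

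**Figure D3:**
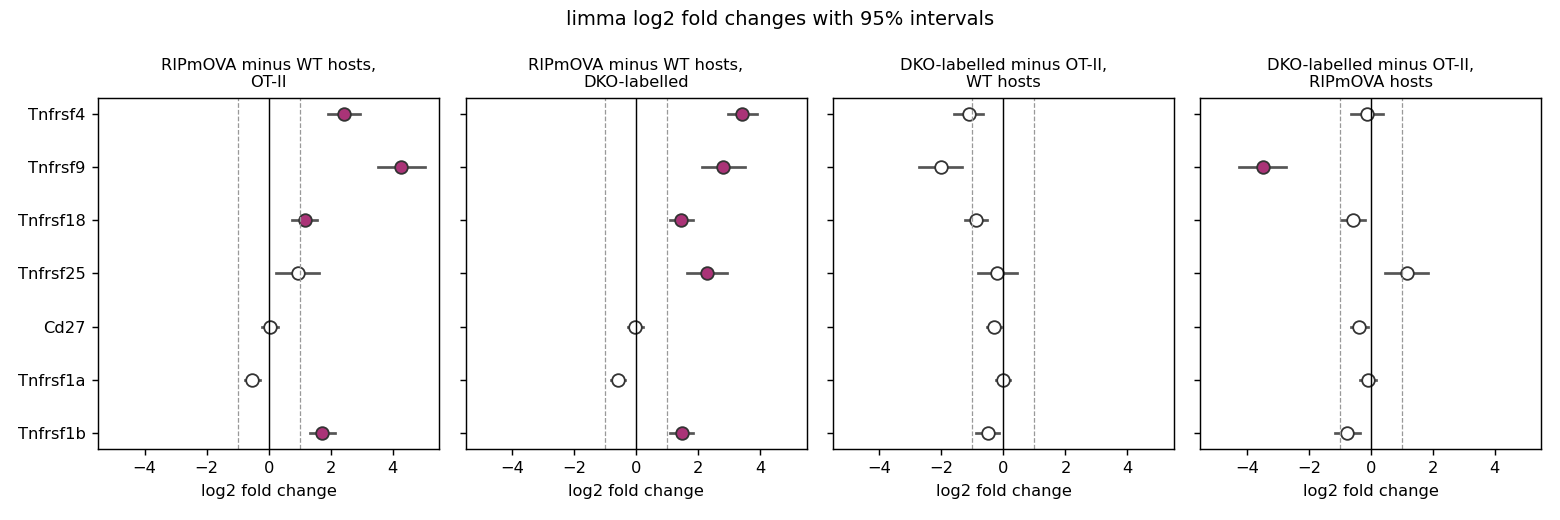
Log2 fold changes of log2(RPKM + 0.5) for the 7 receptors in 4 comparisons, with 95% intervals from limma; filled points passed an adjusted p of 0.05 and an absolute log2 fold change of 1 (dashed lines). Between hosts 4 and 5 points are filled, between genotypes only Tnfrsf9 in RIPmOVA hosts, at -3.49.

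The second comparison asks how DKO-labelled cells differ from OT-II cells in the same host, and in RIPmOVA hosts Tnfrsf9 was the only receptor called. It was 11.2 times lower in DKO-labelled than in OT-II cells, with means of 9.02 ± 4.49 and 101 ± 14.3 RPKM (SD over 2 libraries each). The log2 fold change was -3.49 (SE 0.34, adjusted p = 0.0019 in limma). It was 1 of 7 receptors called, where 0.562% of all genes were called lower and 0.51% higher. Its mean in DKO-labelled RIPmOVA libraries was above the 4.87 RPKM of OT-II WT libraries, although the ranges overlapped. The receptor with the opposite sign was Tnfrsf25, with a mean 2.3 times higher in DKO-labelled cells and a log2 fold change of 1.15 (SE 0.31, adjusted p = 0.09). The sensory receptor share was larger in both DKO-labelled RIPmOVA libraries, so it is not fully separate from genotype there. With this share as a covariate, the log2 fold change of Tnfrsf25 was 0.6 (adjusted p = 0.78). It passed the limits in other fits, at 1.15 without both WT-host libraries richest in sensory receptor reads (adjusted p = 0.035) and at 1.2 with voom on recovered reads (adjusted p = 0.041).

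For the remaining receptors in RIPmOVA hosts, the log2 fold change of DKO-labelled against OT-II cells was -0.77 for Tnfrsf1b (SE 0.18, adjusted p = 0.066), -0.59 for Tnfrsf18 (SE 0.18, adjusted p = 0.11) and -0.37 for Cd27 (SE 0.11, adjusted p = 0.12). Libraries of the genotypes did not overlap for these 3 genes and Tnfrsf9 in the lower direction and for Tnfrsf25 in the higher direction, as for 24.4% and 34.6% of all genes. Without DKO-labelled RIPmOVA replicate 1, the value of Tnfrsf1b was -1.09 and passed (adjusted p = 0.008), and without replicate 2 of that group it was -0.44 (0.19). Tnfrsf18 was at -0.86 (0.046) and -0.31 (0.44) in the same fits, and short of the limit on size in both. Each of these fits leaves the group with 1 library whose spread is taken from the other groups. Tnfrsf4, the neighbour of Tnfrsf18, was at -0.13 (95% interval -0.65 to 0.39) and turned to 0.27 without DKO-labelled RIPmOVA replicate 2. Tnfrsf1a was at -0.09 (-0.34 to 0.16).

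In WT hosts 0 of 7 receptors were called between genotypes by limma, where 7 genes (0.0605%) were called in all and 913 had an unadjusted p under 0.05. All 7 had a log2 fold change of DKO-labelled against OT-II cells below 0, although that of Tnfrsf25 turned to 0.13 without OT-II WT replicate 1 and to 0.04 without DKO-labelled WT replicate 1, and that of Tnfrsf1a to 0.08 without OT-II WT replicate 2 and to 0.01 without DKO-labelled WT replicate 1. It was -2.03 for Tnfrsf9 (SE 0.31, adjusted p = 0.08), -1.12 for Tnfrsf4 (SE 0.21, adjusted p = 0.11), -0.89 for Tnfrsf18 (SE 0.16, adjusted p = 0.1) and -0.51 for Tnfrsf1b (SE 0.16, adjusted p = 0.44). Every DKO-labelled library lay below both OT-II libraries for these 4 and Cd27, as for 10.3% of all genes. The unadjusted p was under 0.05 for these 5, and voom on recovered reads called 0 of the 7 as well. Tnfrsf9 and Tnfrsf4 passed the limits without OT-II WT replicate 2 (adjusted p = 0.018 and 0.046), without DKO-labelled RIPmOVA replicate 1 (0.03 and 0.031) and without DKO-labelled RIPmOVA replicate 2 (0.029 and 0.03). They were at -1.65 (0.42) and -0.93 (0.57) without OT-II WT replicate 1, and at -1.75 (0.46) and -0.97 (0.56) without both WT-host libraries richest in sensory receptor reads. The RIPmOVA libraries enter this comparison only through the shared estimate of spread.

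Whether the host difference itself differed between genotypes was tested by the interaction of host and genotype. None of the 7 receptors passed after adjustment (limma), where 2 genes (0.0173%) did and 1078 had an unadjusted p under 0.05. An unadjusted p under 0.05 was found for 3 receptors, with different signs. The host difference of Tnfrsf9 was smaller in DKO-labelled cells by 1.46 on the log2 scale (95% interval of the interaction -2.48 to -0.43, adjusted p = 0.46). The pseudocount of 0.5 widens this gap, because it lowers the DKO-labelled value more. In OT-II and DKO-labelled cells the values were 4.28 and 2.82, against 4.39 and 3.31 with a pseudocount of 0.1. With voom on recovered reads they were 4.49 and 3.51. The host difference of Tnfrsf25 was larger in DKO-labelled cells by 1.35 (0.42 to 2.29, adjusted p = 0.46), and that of Tnfrsf4 larger by 0.99 (0.29 to 1.69, adjusted p = 0.46). The interaction was 0.3 for Tnfrsf18, -0.25 for Tnfrsf1b, and -0.07 for both Tnfrsf1a and Cd27. The call of Tnfrsf25 in 1 genotype only is thus not shown to differ between genotypes by the adjusted test.

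The ligands of the 7 receptors are made in part by T cells themselves, and 5 of 7 passed the filter. Lta, which encodes lymphotoxin-α, a ligand of both TNFR1 and TNFR2, rose in RIPmOVA hosts from 18.9 and 20.5 to 42 and 45.5 RPKM in OT-II cells (log2 fold change 1.13, adjusted p = 0.0038 in limma), and from a range of 15.9 to 21.3 RPKM up to 49.9 and 54.7 in DKO-labelled cells (1.45, adjusted p = 0.00053). Tnf itself, at 7.45 to 9.98 RPKM over all libraries, was at 0 and 0.2 on the log2 scale. Tnfsf4, the ligand of OX40, was at 0 and 0.245 RPKM in OT-II libraries of WT hosts and at 3.13 and 3.97 in those of RIPmOVA hosts (2.72, SE 0.39, adjusted p = 0.012). Among DKO-labelled libraries Tnfsf4 was at 0 to 0.135 RPKM in WT hosts and at 0.497 and 1.14 in RIPmOVA hosts (1.22, adjusted p = 0.12). Tnfsf9, the ligand of 4-1BB, had values of 0.5 (adjusted p = 0.61) and 1.45 (adjusted p = 0.06), and Tnfsf15, the ligand of DR3, -0.07 and 0.68. The ligands of GITR (Tnfsf18) and CD27 (Cd70) did not pass the filter and were not tested. Tnfsf18 stayed at or below 0.361 RPKM. Cd70 was at 0 and 0.051 RPKM in OT-II WT and 0.576 and 1.47 in OT-II RIPmOVA libraries. In DKO-labelled libraries Cd70 was at 0 in WT hosts and at 0.272 and 0.29 RPKM in RIPmOVA hosts. No ligand was called between genotypes or in the interaction.

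Of 28 genes for TRAF adaptors and proximal signalling, all of which passed the filter, 1 was called, and in both genotypes. It was Tnfaip3, which encodes A20, an inhibitor of NF-κB signalling, with log2 fold changes of 1.05 (adjusted p = 0.019 in limma) in OT-II and 1.04 (adjusted p = 0.0083) in DKO-labelled cells. Traf1 averaged 11.6, 12.9, 12.3 and 16.6 RPKM and Traf2 17.8, 15.7, 20.0 and 15.8 RPKM in OT-II WT, DKO-labelled WT, OT-II RIPmOVA and DKO-labelled RIPmOVA cells, and neither was called. The median log2 fold change of the list was 0.06 and 0.07, near that of all genes.

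All 11 genes of NF-κB subunits and inhibitors passed the filter, and all 11 were above 0 in both genotypes, with a median of 0.71 in each. Called in both were Nfkb2, the precursor of the alternative pathway (log2 fold changes 1.39 and 1.25, adjusted p = 0.012 and 0.0081 in limma), and Nfkbid, which encodes a nuclear IκB protein (1.06 and 1.28, adjusted p = 0.00079 and 0.0001). Bcl3, another nuclear IκB protein, was called in DKO-labelled cells (1.79, adjusted p = 0.0056) and was at 0.87 (adjusted p = 0.17) in OT-II cells. None of the 11 was called between genotypes or in the interaction.

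Host differences of this size were not general to the superfamily. Of 21 other TNF receptor superfamily genes 9 passed the filter and 0 were called in any of the 5 comparisons by limma. Their median log2 fold changes between hosts were -0.19 (OT-II) and 0.02 (DKO-labelled). The one that passed the adjusted p in both genotypes was Relt, which was lower in RIPmOVA hosts, as Tnfrsf1a was (-0.59, adjusted p = 0.044, and -0.51, adjusted p = 0.039). The share called was not tested against that of the 7 receptors, which were chosen with results of these data known. In the 10.8 Mb of chromosome 4 that hold 5 of the receptors, 113 other genes passed the filter. Of these, 2 (1.77%) were called higher in RIPmOVA hosts in OT-II and 1 (0.885%) in DKO-labelled cells, near the 1.05% and 1.52% of all genes. In DKO-labelled cells 1 of the 113 was called lower, as were 0.156% of all genes.

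**Figure D4:**
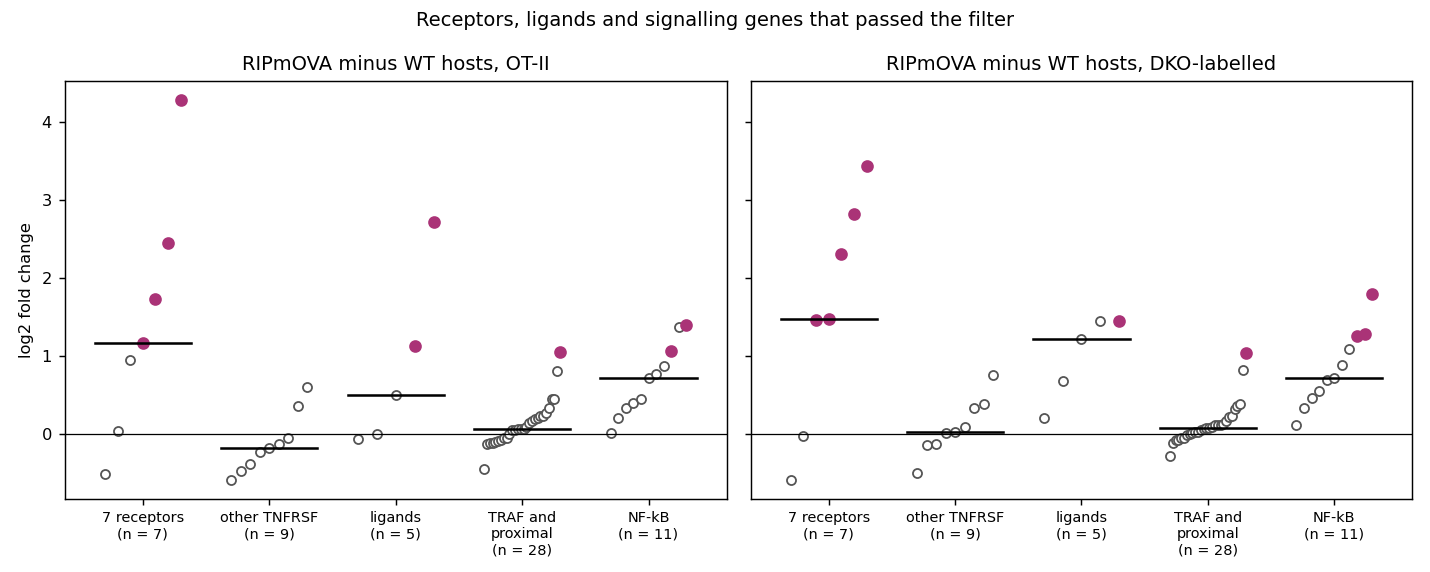
Log2 fold changes of RIPmOVA against WT hosts in OT-II (left) and DKO-labelled (right) cells for the 7 receptors, other TNF receptor superfamily genes, ligands, TRAF and proximal signalling genes and NF-κB genes that passed the filter; points are genes, filled where called, and bars are list medians. The receptors have medians of 1.16 and 1.47, the NF-κB genes 0.71 in both, and the signalling genes 0.06 and 0.07.

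Several of these receptors are also carried by regulatory T cells, so the markers of that lineage are given beside them. The summed RPKM of Foxp3, Il2ra, Ikzf4, Lrrc32 and Ctla4 ranged from 10.6 to 17.3 (OT-II) and from 5.17 to 7.37 (DKO-labelled) in WT hosts, and from 36.1 to 49.0 (OT-II) and from 31.5 to 36.3 (DKO-labelled) in RIPmOVA hosts. Between hosts 3 of 5 were called higher in each genotype: Ikzf4 and Il2ra in both, Lrrc32 in OT-II and Ctla4 in DKO-labelled cells. Foxp3, the defining factor of the lineage, was at 0.29 and 0.491 RPKM in OT-II WT and 1.9 and 3.31 in OT-II RIPmOVA libraries. DKO-labelled libraries held it at 0.037 to 0.071 RPKM in WT hosts and 0.077 and 0.092 in RIPmOVA hosts. In RIPmOVA hosts Foxp3 was lower in DKO-labelled than in OT-II cells (log2 fold change -2.37, adjusted p = 0.02 in limma), as Tnfrsf9 was, and the part of Foxp3-expressing cells in the Tnfrsf9 difference was not tested. Per the labels, regulatory T cells of the chimeras came mostly from the marrow without the transgene. Nkg7, from the list of NK and innate lymphoid markers, had a pattern of the same kind, with 15.6 and 18.6 RPKM in OT-II RIPmOVA and at most 2.25 in every other library, and was called between hosts in OT-II cells (2.87, adjusted p = 0.0017) and between genotypes in RIPmOVA hosts (-3.29, adjusted p = 0.00088). Gzmb of the same list was at 12.9 and 14.8 RPKM in OT-II RIPmOVA and at 2.25 and 3.95 in DKO-labelled RIPmOVA libraries (-2.03, adjusted p = 0.1). Lyz2, a myeloid marker, was at 8.44 and 18.7 RPKM in the former and at 2.12 and 2.83 in the latter (-2.15, adjusted p = 0.098). Other genes of these 2 lists went the other way. Means in OT-II and DKO-labelled RIPmOVA libraries were 0.148 and 1.14 RPKM for Ncr1, and 0.361 and 1.18 for Xcr1. Klrb1c, Csf1r, Adgre1, Siglech, Flt3 and Itgax were also higher in the latter, all under 1 RPKM. Eomes, Prf1 and Itgam were somewhat lower there. The part of cells with any of these markers in the Tnfrsf9 difference was not tested. Of 6 thymic epithelial genes only Epcam passed the filter, and it was called higher in RIPmOVA hosts in DKO-labelled cells (1.47, adjusted p = 0.013). Krt5, Krt8, Foxn1, Aire and Psmb11 stayed at or below 1.11 RPKM and were not tested. The filter was passed by 2 of 5 B cell, 3 of 8 myeloid and dendritic, 4 of 6 double-positive and CD8 lineage and 2 of 4 erythroid genes. Of these, 0 were called in any comparison. Over all genes, 1.23% and 1.68% were called between hosts and 1.07% between genotypes in RIPmOVA hosts.

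Across the 9 libraries, which share their groups, the receptors called between hosts in both genotypes ran together. A host difference in common raises such values by itself. Pearson's r of log2(RPKM + 0.5) was 0.97 for Tnfrsf18 with Tnfrsf1b, 0.96 for Tnfrsf1b with Tnfrsf4 and with Tnfrsf9, and 0.95 for Tnfrsf18 with Tnfrsf4 and with Tnfrsf9. For Tnfrsf4 with Tnfrsf9 it was 0.87. Tnfrsf25 was nearer to Tnfrsf4 (0.86) than to Tnfrsf9 (0.54), and Tnfrsf1a ran against Tnfrsf4 (-0.93). Cd27 was closest to Tnfrsf9 (0.58).

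Among all genes that passed the filter, those most like a receptor over the 9 libraries were named by the same measure. For Tnfrsf9 they were Bcl2l11 (0.988), the BH3-only protein BIM, then Rcn1 (0.984) and Ube2j1 (0.983), of which Ube2j1 ranged only from 55 to 72.4 RPKM. For Tnfrsf4 they were Mxd1 (0.991), Relb (0.988), the partner of the Nfkb2 product, and Tgif1 (0.984). For Tnfrsf18 they were Il12rb1 (0.987), C1qtnf12 (0.985), which lies in the same stretch of chromosome 4, and Tnfsf11 (0.984), which encodes RANKL. For Tnfrsf1b they were Fam129a (0.984), Bcl2a1d (0.979), a Bcl2 family gene with near-identical copies between which reads cannot be assigned with certainty, and Cish (0.979). For Tnfrsf25 they were Crnkl1 (0.986), Prelid2 (0.981) and Ap3b1 (0.973). Of these, Crnkl1 ranged only from 20.3 to 27.2 RPKM and Ap3b1 from 23.2 to 30.5. For Tnfrsf1a they were Impdh1, Mettl9 and Sla2 (0.959 each), and for Cd27 Stambpl1 (0.97), Rab2a (0.959) and Ppil2 (0.953). With 9 libraries in 4 groups such values mostly follow the group means.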

How the data were processed

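Bulk RNA sequencing of 9 libraries was analysed from 1 table. According to the methods, the authors used a SMART-seq v4 cDNA kit and Nextera XT libraries, aligned paired reads to mm10 with STAR and GENCODE vM17, removed duplicates with Picard and counted reads on exons of Entrez genes with GenomicRanges. The deposited unit is RPKM, which the authors scaled to exon length and to reads per library. Which versions of STAR and Picard ran, and whether strand was used, is not given in the sources used here. The authors tested counts with DESeq2. Here the unit called for limma 3.58.1 (R 4.3.3) on log2(RPKM + 0.5) of the 11569 genes that reached an RPKM of 1 in 2 or more libraries, fitted by group means across the 9 libraries with eBayes and its intensity trend, and p was adjusted by Benjamini-Hochberg over these genes. Calls needed an adjusted p of at most 0.05 and a log2 fold change of 1 or more in size. The fold change is on the log2(RPKM + 0.5) scale and understates the change of low genes.

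Reads per library (15520000 to 25050000) were recovered from RPKM and length, with 100% of the low values checked within 0.1 of a whole read. Reads carry no molecular identifiers. Per the labels, libraries with the same number in the same host came from the same chimera, which pairs OT-II and DKO-labelled libraries within a host, and libraries of 1 group came from different chimeras. Deviations from the group means of such pairs had correlations of 0.01 and -0.24 over genes in WT hosts, and of -0.08 and -0.08 in RIPmOVA hosts. The values of RIPmOVA hosts are equal by construction, since deviations in a group of 2 libraries mirror each other. Alternatives were other pseudocounts, filters and scalings, fits limited to the groups compared, eBayes without the trend, adjusted p alone, a replicate block, a sensory receptor covariate, voom on recovered reads and leaving libraries out. Voom, the block by number across hosts and leaving out both WT-host libraries with most sensory receptor reads were chosen after seeing the data.

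The members, the gene lists and the rules for naming were chosen with earlier results of these data known. Named were all 7 receptors, called genes of each list, ligands and TRAF genes for their role, and the 3 genes most like each receptor. The markers Trbc1, Trbc2 and Hbb-bs were not matched to the table. Promoters and gene positions came from RefSeq (GRCm38.p6) and GENCODE vM21, with 24570 genes matched to RefSeq by Entrez ID. Python 3.11.15, pandas 2.3.3, numpy 2.4.6 and matplotlib 3.10.9 were used.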

Additional observations from a re-analysis of the deposited data

How the results depend on the processing

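Of 777 values of a receptor under an alternative setting, 742 kept their direction and their side of the limits. The number of receptors called between genotypes in RIPmOVA hosts was 1 and became 2 with a fit of the groups compared only, with voom on recovered reads and without both WT-host libraries richest in sensory receptor reads (Tnfrsf25 joined Tnfrsf9 in each). Leaving out single libraries gave 1 to 2 there and 0 to 2 between genotypes in WT hosts, where 0 were called. The counts of 4 and 5 between hosts stayed within 1.5 times. Tnfrsf18 in OT-II cells also lost its call with a fit of the groups compared only (adjusted p = 0.052) and without both WT-host libraries (0.11). With the chimera as replicate block, which pairs libraries within a host, 4, 5, 1, 0 and 0 receptors were called between hosts in OT-II and DKO-labelled cells, between genotypes in RIPmOVA and WT hosts and in the interaction, and no call changed.

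For Cd27 between hosts in DKO-labelled cells the value became 0.01 with quantile normalization and 0.02 with the number across hosts as replicate block, and for Tnfrsf1a in the interaction 0.06 without both WT-host libraries. Values without single libraries crossed 0 for Cd27 between hosts in OT-II (-0.09 to 0.17) and DKO-labelled cells (-0.1 to 0.05), and between genotypes in RIPmOVA hosts for Tnfrsf4 (-0.52 to 0.27) and Tnfrsf1a (-0.2 to 0.02). They did so in WT hosts for Tnfrsf1a (-0.12 to 0.08) and Tnfrsf25 (-0.54 to 0.13), and in the interaction for Tnfrsf1a (-0.18 to 0.04), Tnfrsf1b (-0.58 to 0.07) and Cd27 (-0.2 to 0.06). The causes were not tested. Counts over all genes moved more: between hosts they were 142 (31 to 296) and 194 (87 to 565), between genotypes 124 (18 to 585) in RIPmOVA and 7 (2 to 100) in WT hosts, and 2 (0 to 159) in the interaction. With 2 or 3 libraries a group, calls rest on limma's shared estimate of spread, and Tnfrsf9 in DKO-labelled WT libraries on 60 to 85 reads.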
